A study of Mus musculus with 6 samples.

Results

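The Hox-locus miRNAs are small regulatory RNAs whose hairpins lie inside the 4 Hox gene clusters of the mouse, and 7 mature names of this kind were followed: mmu-miR-10a-5p, mmu-miR-10a-3p, mmu-miR-10b-5p, mmu-miR-10b-3p, mmu-miR-196a-5p, mmu-miR-196b-5p and mmu-miR-615-3p, written below without the prefix for mouse. They were taken by name from the deposited table, which held all 7 among its 1224 miRNA names. The small RNA came from the immortalised spermatogonial line GC-1spg, 48 h after transfection. There were 3 libraries from cells given an siRNA against METTL3 (si-METTL3) and 3 from cells given a control siRNA (si-NC). METTL3 is the enzyme that places N6-methyladenosine (m6A) on RNA, and the comparison asks which small RNAs differ after siRNA against it. The labels name no further allele or agent. Whether the 3 libraries of each group were separate cultures is not said, and every p-value below measures library-to-library spread that could be technical. In RNA from whole cultures, fewer cells with a miRNA and less of it in each cell cannot be told apart. The labels print the same siRNA sequence for both groups and mature miRNA counts hold no Mettl3 mRNA, so the groups are those of the sample titles and the knockdown was not checked here.

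Hox genes encode the transcription factors that give cells their position along the head to tail axis, and they stand in clusters whose order follows that axis. The miR-10 hairpins lie next to the genes of the fourth Hox group and the miR-196 hairpins next to those of the ninth and the tenth, and both families act on Hox mRNAs. In mouse embryos miR-196 directs the cleavage of Hoxb8 mRNA, to which it is almost fully complementary. Of the 2 arms of a hairpin, one usually stays in the Argonaute protein as the guide, which reads its targets mainly through bases 2 to 8, the seed, and the other arm is mostly degraded.

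The mature sequences are shown because the families are set by their seeds, and because close relatives compared below differ by so few bases. They are RefSeq sequences on GRCm38.p6, all 7 were matched and were identical to the deposited ones, and the capitals mark bases 2 to 8.
miR-10a-5p: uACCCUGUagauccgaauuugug
miR-10b-5p: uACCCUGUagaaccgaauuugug
miR-10a-3p: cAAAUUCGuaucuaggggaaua
miR-10b-3p: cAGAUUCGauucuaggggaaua
miR-196a-5p: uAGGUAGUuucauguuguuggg
miR-196b-5p: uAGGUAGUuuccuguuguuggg
miR-615-3p: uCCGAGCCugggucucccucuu
miR-10a-5p and miR-10b-5p differ by 1 base, U12A, counted from 1 at the 5′ end of miR-10a-5p. miR-196a-5p and miR-196b-5p likewise differ by A12C. Each of these pairs has 1 seed in common. The 3p arms of miR-10 differ at 3 bases, A3G, U9A and A10U, the first of which lies in the seed. The miR-196 seed also stands at bases 3 to 9 of 8 of the 9 let-7 5p names in the table (miR-98-5p counted with them), 1 base further from the 5′ end than in miR-196.

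The hairpins fell in every Hox cluster (GENCODE M21, GRCm38). miR-10a-5p lies at chr11:96317186-96317208 on the plus strand, between Hoxb5 and Hoxb4, with Hoxb4 starting 993 bases after the hairpin. miR-10b-5p lies at chr2:74726074-74726096 on the plus strand, in annotated introns of Hoxd3 and Hoxd4 on the same strand. miR-196a-5p has 2 source loci, and its reads cannot be assigned to one of them. One is chr11:96265187-96265208 on the plus strand, 6192 bases before Hoxb9 by its hairpin, and the other is chr15:102973365-102973386 on the plus strand, in an annotated intron of Hoxc5 between Hoxc10 and Hoxc9. miR-196b-5p lies at chr6:52230129-52230150 on the minus strand, in an annotated exon of Hoxa9 on the same strand. miR-615-3p lies at chr15:103014969-103014990 on the plus strand, in an intron of Hoxc5.

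The hairpins of miR-10a (Mir10a, chr11:96317165-96317274, plus strand) and miR-10b (Mir10b, chr2:74726070-74726137, plus strand) are shown since the results turn on their arms, which are in capitals.
Mir10a: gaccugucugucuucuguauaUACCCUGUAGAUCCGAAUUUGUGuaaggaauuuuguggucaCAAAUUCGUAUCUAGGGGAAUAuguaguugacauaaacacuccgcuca
Mir10b: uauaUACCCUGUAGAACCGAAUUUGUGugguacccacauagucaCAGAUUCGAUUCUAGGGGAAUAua
The letters GGAC, the core of the sequence at which METTL3 methylates, were searched on the transcribed strand. They stood once in the hairpin of miR-196a-1 and in no other of the 5 hairpins with a RefSeq sequence (Mir10a, Mir10b, Mir196a-1, Mir196a-2 and Mir196b), while 24.5% of 1005 mouse hairpins hold them. On either strand the share of all hairpins was 40.5%, and the 5 were not counted in that way. The hairpin of miR-615 had no RefSeq sequence here and was not searched. A match describes letters only, and nothing about methylation follows from it.

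The library totals behind the deposited TPM values ran from 3998058 to 6132668 reads, the largest being si-METTL3 1. A level of 3 counts, which served as no filter here, equals 0.489 to 0.750 CPM (counts scaled to a common library size). The library si-NC 1 stood apart in bantam-y, an insect miRNA, which had 1 count in it and 52 to 252 in the other 5 libraries. The name miR-750-y divided the libraries in another way. It had 0 CPM in si-NC 1, si-METTL3 2 and si-METTL3 3. In si-NC 2, si-NC 3 and si-METTL3 1 it had 20.2, 42.7 and 52.6 CPM. All 12 listed miRNAs of the X-linked testis cluster, markers of male germ cells, were in the table at low levels. They summed to 157 to 187 CPM in si-NC and 139 to 150.1 CPM in si-METTL3. Of the 11 tested, 2 were lower and none higher at the threshold. All 5 markers of mesenchymal cells were listed at 5676 to 5763 CPM in si-NC and 7291 to 7490.5 CPM in si-METTL3, with 1 higher and 1 lower at the threshold. The sum of 8 blood and serum markers was 135 to 155 and 166 to 169.6 CPM (1 of 6 tested higher). For 5 epithelial markers it was 98.4 to 119 and 68.7 to 75.6 CPM (3 of 4 tested lower). For 2 endothelial markers it was 76.3 to 95.3 and 66.6 to 76.8 CPM (none called). At the same threshold, 17.7% of all names tested were higher and 11.6% lower. None of 7 markers of pluripotent cells was listed. The part of these markers in the results below was not tested.

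In GC-1spg cells the Hox-locus miRNAs were mainly miR-10. Together the 7 names held 2.97% ± 0.0787 of a si-NC library and 3.04% ± 0.0350 of a si-METTL3 library (SD, n = 3), and miR-10a-5p with miR-10b-5p made up 92.7% ± 0.185 and 93.1% ± 0.0413 of that. In si-NC miR-10a-5p ranked 13 by level among all names and miR-10b-5p 16, followed by miR-196a-5p at 55, miR-196b-5p at 95, miR-615-3p at 124, miR-10b-3p at 207 and miR-10a-3p at 243. In si-METTL3 the ranks of the first 2 were the same, and miR-615-3p had moved up to 102, next to miR-196b-5p at 100. No neighbours in the order of the 7 levels overlapped in si-NC, where all libraries held the same order. In si-METTL3, miR-615-3p overlapped with miR-196b-5p.

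After METTL3 siRNA, miR-615-3p rose by 1.82-fold, miR-10a-5p rose slightly, miR-196a-5p fell slightly, and the other 4 members did not pass an adjusted p of 0.05. The test was edgeR's two-sided quasi-likelihood test on the counts of all names, with TMM scaling and the Benjamini-Hochberg adjustment over the 622 names tested. All 7 members passed the filter on low counts. The 3 members called, 2 higher and 1 lower, stand against 29.3% of all names called, 17.7% higher and 11.6% lower. In 4 members (miR-10a-5p, miR-10a-3p, miR-196a-5p and miR-615-3p) the groups did not overlap, against 41.2% of all names, so neither share of the 7 stands far from that of all names. miR-615-3p alone was called with a log2 fold of at least 0.5 in size, as were 10.1% of all names. Their median log2 fold was 0.0055, and that of all names tested was 0.0054. The split of all calls, 110 higher and 72 lower, turned to 83 and 102 with library totals alone.

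**Figure D1:**
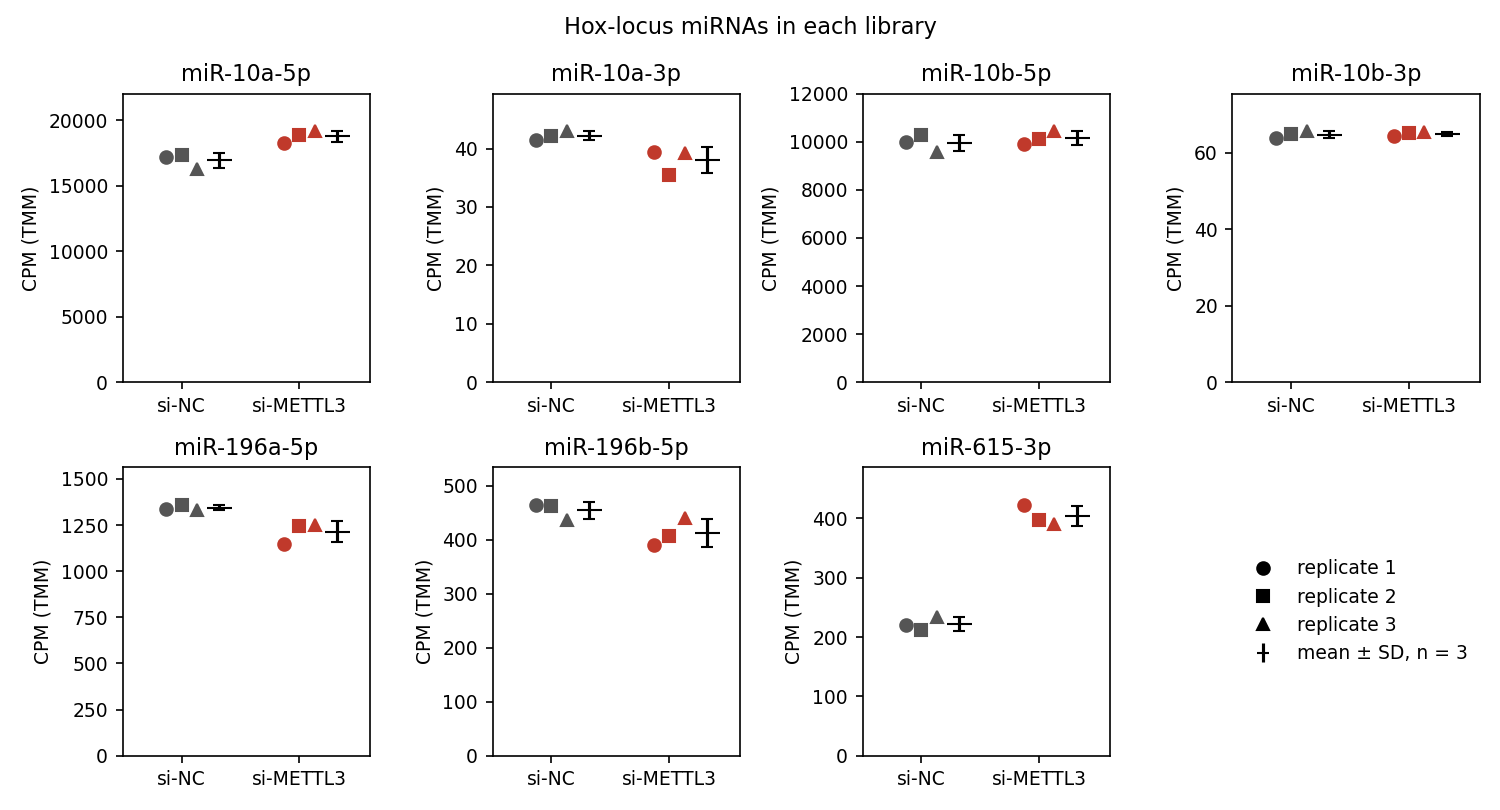
CPM with TMM scaling (linear axes from 0) of the 7 miRNAs in 3 si-NC (grey) and 3 si-METTL3 (red) libraries, with a marker per replicate and the mean ± SD of the group beside it. miR-615-3p sits between 211 and 234 CPM in si-NC and between 391 and 423 CPM in si-METTL3, the widest gap of the 7 relative to the level.

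miR-10a-5p, the guide arm of the hairpin upstream of Hoxb4, was counted 70380, 71191 and 67586 times in si-NC 1 to 3, and 111660, 81924 and 84717 times in si-METTL3 1 to 3. The deposited TPM were 17366, 17806 and 16882 in si-NC and 18207, 18312 and 18548 in si-METTL3. Every si-METTL3 library was above every si-NC library. With TMM scaling the level went from 16955 ± 556 to 18789.7 ± 439.9 CPM (SD, n = 3). The log2 fold was 0.15 ± 0.04 (SE) with an adjusted p of 0.0059 in edgeR's test. The call was lost with library totals alone (log2 fold 0.08, adjusted p 0.098), with limma on the deposited TPM (0.08, 0.089 to 0.090), without si-NC 3 (0.12, 0.056) and with a term for sets of libraries added after the data were seen (0.12, 0.134). Over all 19 alternatives the adjusted p ran from 0.0021 to 0.134.

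miR-10b-5p, its close relative from the Hoxd cluster, had 40845, 42159 and 39714 counts in si-NC and 60397, 43981 and 46136 in si-METTL3. Its TPM were 10078, 10545 and 9919.7 in si-NC and 9848, 9831 and 10101 in si-METTL3. The groups overlapped. The TMM-scaled level was 9948 ± 343 and 10161.5 ± 271 CPM (SD, n = 3). Its log2 fold of 0.03 ± 0.04 (SE) did not pass in edgeR's test (adjusted p 0.625) and turned to -0.04 with library totals alone.

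The ratio of the miR-10 guide arms, which needs no scaling between libraries, separated the groups. There were 0.580, 0.592 and 0.588 counts of miR-10b-5p per count of miR-10a-5p in si-NC, and 0.541, 0.537 and 0.545 in si-METTL3. The 3 si-METTL3 libraries lay close together below the 3 si-NC libraries. The log2 ratio of miR-10a-5p over miR-10b-5p went from 0.77 ± 0.01 to 0.89 ± 0.01 (SD, n = 3), a difference of 0.12 (p 0.1 by exact two-sided permutation, which groups of 3 cannot go below, adjusted p 0.131 over the 21 pairs of members). Leaving out any 1 library left this difference between 0.11 and 0.13. Groups that do not overlap were common in such ratios. They were found in 16 of the 21 pairs of members and in 51.1% of all pairs of mouse names with at least 10 CPM.

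**Figure D2:**
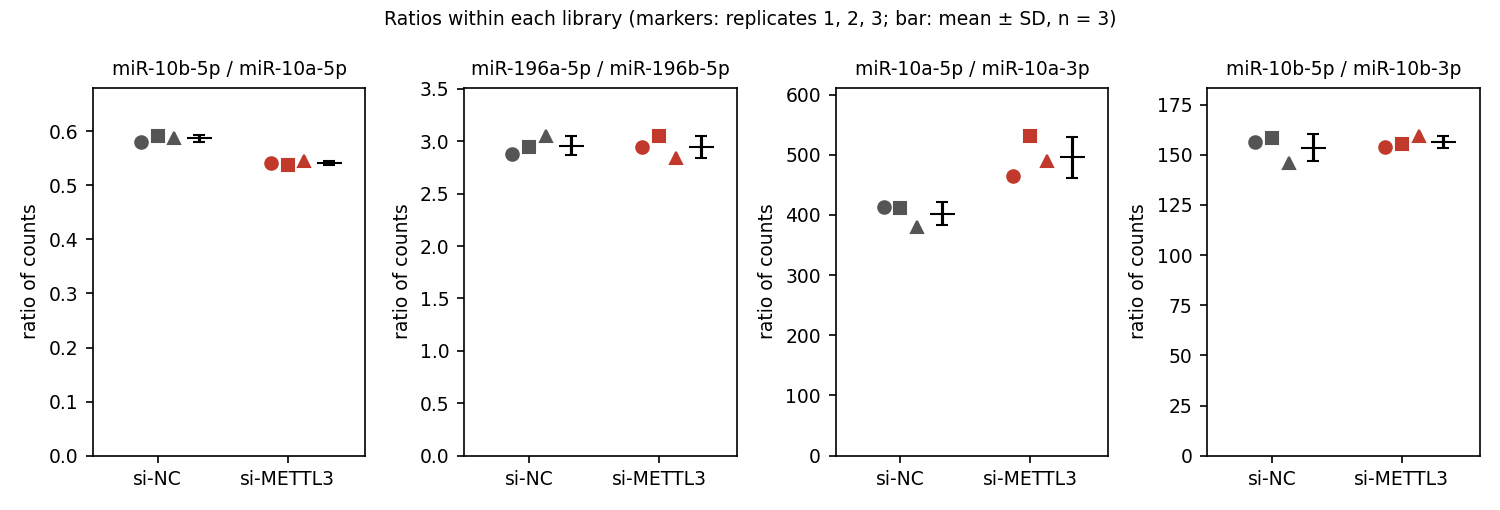
Ratios of counts within each library (linear axes from 0) for 4 pairs of mature miRNAs, in 3 si-NC (grey) and 3 si-METTL3 (red) libraries, with the mean ± SD of each group. miR-10b-5p over miR-10a-5p lies at 0.580 to 0.592 in si-NC and 0.537 to 0.545 in si-METTL3, while miR-196a-5p over miR-196b-5p and miR-10b-5p over miR-10b-3p overlap between the groups.

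The 3p arms of the miR-10 hairpins were rare beside their guides. miR-10a-3p had 170, 173 and 178 counts (41.9, 43.3 and 44.5 TPM) in si-NC and 240, 154 and 173 counts (39.1, 34.4 and 37.9 TPM) in si-METTL3. The si-METTL3 libraries were all lower than the si-NC libraries in TPM. The TMM-scaled level was 42.2 ± 0.718 and 38.0 ± 2.19 CPM (SD, n = 3). The difference of -0.15 ± 0.11 (SE) on the log2 scale did not pass edgeR's test (adjusted p 0.336). miR-10b-3p had 261, 266 and 272 counts (64.4, 66.5 and 67.9 TPM) in si-NC and 393, 283 and 289 counts (64.1, 63.3 and 63.3 TPM) in si-METTL3. Its TPM did not overlap, but after TMM scaling its groups did, at 64.8 ± 0.945 and 65.0 ± 0.509 CPM (log2 fold 0.01 ± 0.08, adjusted p 0.980), a value whose sign depended on the scaling (-0.06 with library totals alone).

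The passenger arm was thus more abundant for miR-10b than for miR-10a, in every library, although the guide was less abundant. In si-NC there were 402 ± 19.1 counts of miR-10a-5p per count of miR-10a-3p, and 154 ± 6.71 of miR-10b-5p per count of miR-10b-3p (SD, n = 3). In si-METTL3 the values were 496 ± 33.8 and 156 ± 3.07. For miR-10a the ratio was 414, 412 and 379.7 in si-NC and 465, 532 and 489.7 in si-METTL3, without overlap. Among all pairs of mouse names with at least 10 CPM, 51.1% did not overlap either. In limma's test of log2 arm ratios, two-sided and adjusted over all 118 mouse hairpins with a mean of at least 10 counts on both arms, of which 10.2% were called, miR-10a did not pass (log2 difference 0.30 ± 0.10 SE, adjusted p 0.127). It passed when hairpins needed a mean of at least 50 counts on both arms (adjusted p 0.034), the one of 11 alternatives where it did (range 0.034 to 0.565). miR-10b did not pass either (0.03 ± 0.09, adjusted p 0.913).

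The miR-196 guides, which have 1 seed, stood in si-METTL3 at 0.902 (miR-196a-5p) and 0.907 (miR-196b-5p) of their fitted si-NC level, and only the first passed the test. miR-196a-5p had 5483, 5585 and 5527 counts in si-NC and 6997, 5397 and 5531 in si-METTL3. Its TPM were 1353, 1397 and 1381 in si-NC and 1141, 1206 and 1211 in si-METTL3. All si-METTL3 libraries were lower in TPM, si-METTL3 1 the lowest. The TMM-scaled level went from 1345 ± 13.9 to 1214 ± 58.0 CPM (SD, n = 3) and fell by 0.15 ± 0.04 (SE) on the log2 scale (adjusted p 0.013, edgeR). Without si-METTL3 1 the call was lost (log2 fold -0.11, adjusted p 0.070), the only one of 19 alternatives where it was (range 3.8e-04 to 0.070).

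miR-196b-5p, from the Hoxa cluster, had 1904, 1898 and 1809 counts in si-NC and 2378, 1767 and 1949 in si-METTL3. The TPM were 469.8, 475 and 452 in si-NC and 388, 395 and 427 in si-METTL3, which do not overlap. After TMM scaling si-METTL3 3 (441 CPM) lay above si-NC 3 (437 CPM), and the groups overlapped at 455 ± 15.7 and 413 ± 26.1 CPM (SD, n = 3). The log2 fold of -0.14 ± 0.05 (SE) did not pass (adjusted p 0.057, edgeR). It did in 10 of 19 alternatives, among them library totals alone (-0.21, adjusted p 0.0041), over a range of 0.0041 to 0.1998. The ratio of miR-196a-5p over miR-196b-5p was 2.96 ± 0.0889 (SD, n = 3) in si-NC against 2.94 ± 0.108 in si-METTL3, with overlapping groups and a log2 difference of -0.0072 (exact two-sided permutation p 0.7, adjusted p 0.774).

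The other arms of the miR-196 hairpins separate the source loci. miR-196a-2-3p comes from the Hoxc hairpin alone and had 39, 59 and 65 counts in si-NC and 113, 68 and 58 in si-METTL3. It overlapped between the groups and did not pass (log2 fold 0.27 ± 0.20 SE, adjusted p 0.363, edgeR). The log2 fold was 0.08 without si-NC 1, 0.12 without si-METTL3 1 and 0.40 without si-NC 3, and passed in none of the 19 alternatives. miR-196a-1-3p, of the Hoxb hairpin, was not among the names analysed here, so the part of miR-196a-5p that came from each locus was not measured. miR-196b-3p had 12, 20 and 15 counts in si-NC and 19, 11 and 10 in si-METTL3, and the SE of its log2 fold was wider than the difference of its 5p arm (log2 fold -0.50 ± 0.35, adjusted p 0.320, or -0.30 without si-NC 2).

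miR-615-3p, from the intron of Hoxc5, had the widest log2 fold of the 7. It had 899, 867 and 971 counts in si-NC and 2581, 1723 and 1729 in si-METTL3. Its TPM were 222, 217 and 243 in si-NC and 421, 385 and 379 in si-METTL3. The lowest si-METTL3 library was well above the highest si-NC library. With TMM scaling it rose from 222 ± 11.7 to 404 ± 17.0 CPM (SD, n = 3), 1.82-fold, with a log2 fold of 0.87 ± 0.06 (SE) and an adjusted p of 4.7e-11 (edgeR). Among the 622 names tested its log2 fold ranked 16, and among the 166 names with at least 100 CPM in si-NC it ranked 2, a cut chosen after its values were seen. The call held in all 19 alternatives, with log2 folds from 0.78 to 0.93. The highest of these came with the term for sets of libraries, which compares the groups through 1 si-METTL3 library only, si-METTL3 1, the highest of the 3. Leaving out any 1 of the 6 libraries gave 0.82 to 0.90.

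The 5p arm of the same hairpin pointed the same way at a much lower level. miR-615-5p had 33, 29 and 30 counts (8.14, 7.25 and 7.49 TPM) in si-NC and 87, 37 and 39 counts (14.2, 8.27 and 8.54 TPM) in si-METTL3. All si-METTL3 libraries were higher, but 2 of them only just, and si-METTL3 1 stood far above the others. The log2 fold of 0.53 ± 0.23 (SE) did not pass (adjusted p 0.087, edgeR), and the value rested on single libraries. Without si-METTL3 1 it was 0.22 (adjusted p 0.590). It passed in 2 of 18 alternatives, without si-METTL3 2 (0.65, adjusted p 0.044) and with the term for sets of libraries (0.99, adjusted p 0.0035), where si-METTL3 1 alone stands for its group. There were 29.8 ± 2.56 counts of miR-615-3p per count of miR-615-5p in si-NC against 40.2 ± 9.18 with METTL3 siRNA (SD, n = 3), and the log2 ratio of 5p over 3p did not differ at the threshold (-0.41 ± 0.19 SE, adjusted p 0.215, limma). Here, unlike in the miR-10 and miR-196 hairpins with both arms counted, the 3p arm was the more abundant one.

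**Figure D3:**
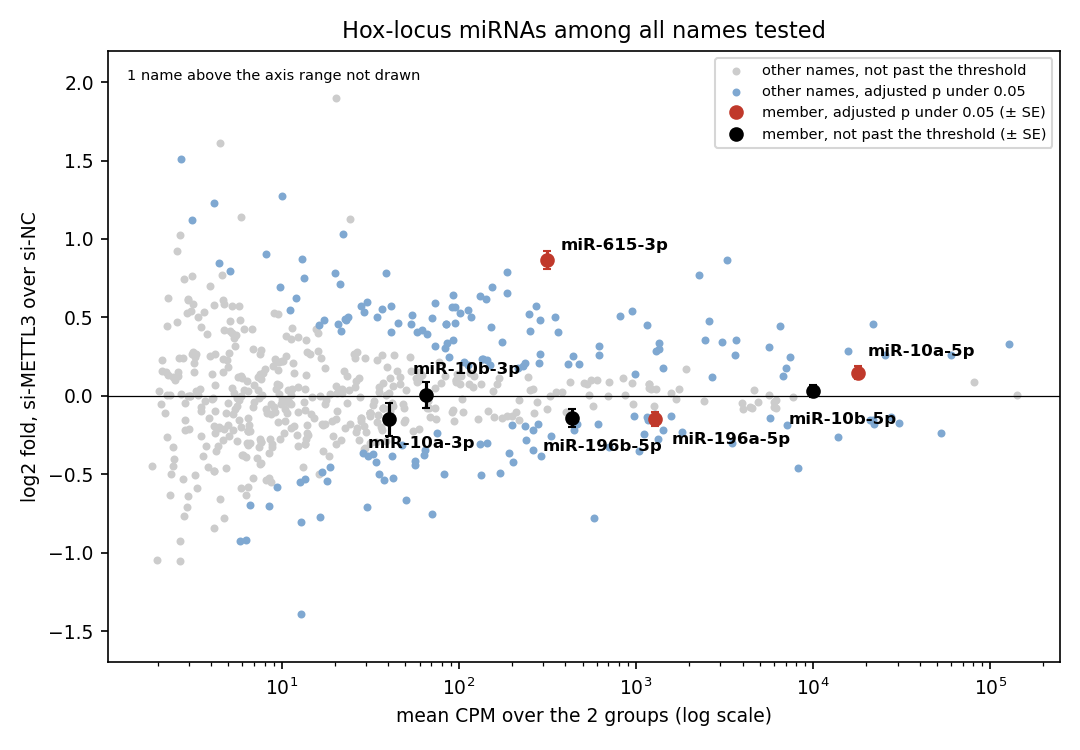
Log2 fold of si-METTL3 over si-NC against the mean CPM (log axis) for the names tested, with the Hox-locus miRNAs labelled and drawn with their SE (red where the adjusted p was under 0.05, black otherwise); 1 name above the axis range is not drawn. miR-615-3p stands at 0.87, and the other 6 members lie between -0.15 and 0.15.

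The table also holds 7 names without the mouse prefix whose sequences are close to a Hox-locus miRNA. The endings -x, -y and -z are the authors', and no label or header explains them. Whether reads of these names came from mouse miRNAs was not tested. The sequences are shown because they let each name be compared with a mouse miRNA. They are the deposited ones, in DNA letters, and capitals mark bases that the mature mouse sequence does not have at that place.
miR-10-x, against miR-10a-5p: Ctaccctgtagatccgaatttgt
miR-10-z, against miR-10a-5p: accctgtagatccgaatttgtgAT
miR-10-y, against miR-10a-3p: aattcgtatctaggggaataTT
miR-196-x, against miR-196a-5p: taggtagtttcatgttgttgggAA
miR-196-z, against miR-196a-5p: taggtagtttcatgttgttgggTA
miR-196-y, against miR-196a-2-3p: tcggcaacaagaaactgcctgaGA
miR-615-y, against miR-615-3p: tccgagcctgggtctccctcCA
For the 6 names whose mouse hairpin has a RefSeq sequence, none occurred whole in that hairpin, so at least 1 base of each differs from the hairpin or lies outside it. miR-10-x starts 1 base before miR-10a-5p and miR-10-z 1 base after it, which moves bases 2 to 8. The names miR-10-x, miR-10-z and miR-10-y, and miR-196-y, share neither the first 15 bases nor bases 2 to 8 with any of the 7 members and were added after their values were seen.

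Of these, miR-615-y passed the test and moved the same way as miR-615-3p. It had 86, 97 and 60 counts in si-NC and 190, 105 and 124 in si-METTL3, or 21.2, 24.3 and 14.99 TPM against 31.0, 23.5 and 27.1 TPM. The TPM overlap, while after TMM scaling the lowest si-METTL3 library (24.2 CPM) lay just above the highest si-NC library (23.6 CPM). The log2 fold was 0.50 ± 0.16 (SE, adjusted p 0.024, edgeR). The call was lost in 5 of 18 alternatives, with limma on the TPM (adjusted p 0.060 to 0.067), without si-NC 3 (log2 fold 0.32, 0.163) and without si-METTL3 1 (0.41, 0.127), over a range of 0.0048 to 0.163. It stood at 8.98 ± 2.56 per 100 counts of miR-615-3p in si-NC and at 6.88 ± 0.684 (SD, n = 3) with METTL3 siRNA. In limma's test of such ratios over 162 pairs of a variant and a mouse name, of which 8.64% were called, its log2 ratio did not pass (-0.35 ± 0.23 SE, adjusted p 0.381). That difference was -0.17 without si-NC 2 and -0.60 without si-NC 3 (adjusted p 0.073, the lowest of 10 alternatives).

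The other variants were few and did not differ at the threshold. miR-10-x had 380, 442 and 364 counts in si-NC and 554, 381 and 405 in si-METTL3 (log2 fold -0.09 ± 0.08 SE, adjusted p 0.450, edgeR), and overlapped between the groups after TMM scaling, though not in TPM. Its log2 fold was -0.01 without si-NC 2 and -0.16 without si-NC 3. It stood at 0.566 ± 0.0471 per 100 counts of miR-10a-5p in si-NC and at 0.480 ± 0.0156 (SD, n = 3) with METTL3 siRNA. That ratio, 0.539 to 0.621 in si-NC and 0.465 to 0.496 in si-METTL3, was not tested. miR-10-z had 33 to 58 counts in si-NC and 41 to 67 in si-METTL3 (log2 fold -0.04 ± 0.21, adjusted p 0.930). miR-196-x had 81 to 91 counts in si-NC and 59 to 124 in si-METTL3 (log2 fold -0.26 ± 0.17, adjusted p 0.286). That log2 fold was -0.38 without si-METTL3 1, -0.11 without si-METTL3 2 and -0.04 with the term for sets of libraries. The ratio of miR-196-x to miR-196a-5p did not pass (log2 difference -0.14 ± 0.19, adjusted p 0.720, limma), nor did that of miR-196-y to miR-196a-2-3p (-0.41 ± 0.18, adjusted p 0.187, or -0.24 without si-NC 1). miR-10-y (0 to 5 counts), miR-196-y (9 to 14) and miR-196-z (5 to 14) did not pass the filter on low counts.

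The members thus did not move as 1 group. The log2 ratio of miR-615-3p to each of the other 6 separated the groups. These 6 ratios share miR-615-3p and are not independent, and 51.1% of all pairs of mouse names with at least 10 CPM separated too. The rise of miR-615-3p exceeded the change of the others by 0.72 (against miR-10a-5p) to 1.02 (against miR-10a-3p) on the log2 scale. Each difference had an exact two-sided permutation p of 0.1, the smallest possible (adjusted p 0.131). One source locus of miR-196a-5p lies in the same cluster as miR-615, but reads of miR-196a-5p cannot be assigned to it. The log2 ratio of miR-196a-5p over miR-615-3p went from 2.60 ± 0.0894 to 1.59 ± 0.130 (SD, n = 3). miR-196a-2-3p, which comes from that locus alone, had a log2 fold of 0.27 ± 0.20 (SE) and did not pass (adjusted p 0.363, edgeR). The log2 ratio of miR-10a-5p over miR-196a-5p went from 3.66 ± 0.0378 to 3.95 ± 0.0385. The pairs that overlapped were miR-196a-5p with miR-196b-5p, miR-10b-5p with miR-10b-3p, miR-10a-3p with each of the miR-196 names, and miR-10b-3p with miR-196b-5p.

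**Figure D4:**
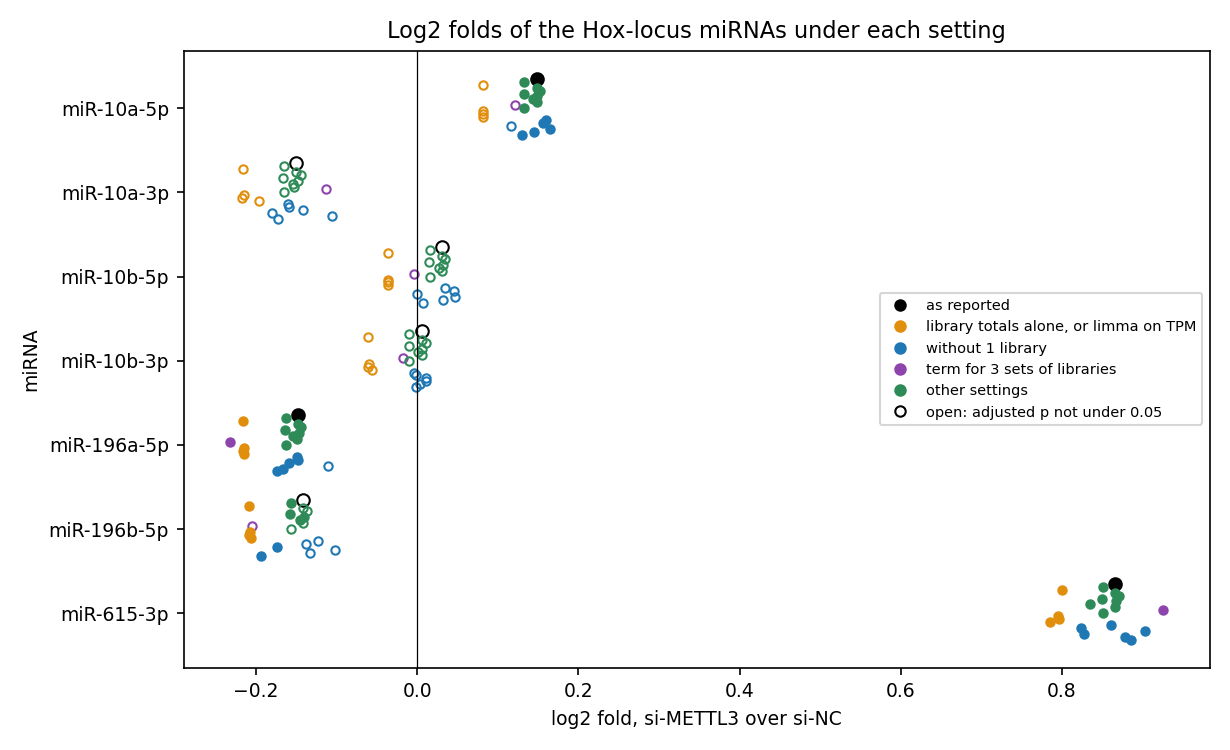
Log2 fold of si-METTL3 over si-NC of the 7 miRNAs as reported (black) and under 19 other settings, filled where the adjusted p was under 0.05. miR-615-3p stays between 0.78 and 0.93, while library totals alone and limma on the TPM move every member to lower values and place miR-10b-5p and miR-10b-3p below 0.

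The mouse names whose pattern over the 6 libraries was nearest to a member were found by the root mean square difference of centred log2 CPM among 281 names of at least 10 CPM. For miR-615-3p they were miR-199a-5p (0.08), miR-298-5p (0.10) and miR-872-3p (0.10), where the median name was 0.45 away. Their log2 folds were 0.87 ± 0.04, 0.69 ± 0.07 and 0.79 ± 0.07 (SE). miR-199a-5p is one of the 5 mesenchymal markers above, of which 1 was higher and 1 lower at the threshold. All nearest names were picked for their likeness to the member over these 6 libraries, so similar log2 folds follow from the choice. For miR-10a-5p they were miR-30b-5p, miR-182-5p and miR-30d-3p (0.04 each), and for miR-10b-5p miR-106b-5p (0.02), miR-181a-5p (0.02) and miR-29b-3p (0.03). For miR-10a-3p they were let-7c-5p, miR-19a-3p and miR-92a-1-5p (0.02 to 0.04), and for miR-10b-3p miR-181a-5p, let-7e-5p and miR-183-5p (0.03 each). For miR-196a-5p they were miR-30a-5p, miR-26b-5p and miR-872-5p (0.03 to 0.04), and for miR-196b-5p miR-3068-5p, miR-690 and let-7f-5p (0.04 to 0.05).

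The relatives of miR-10 by sequence, the miR-99/100 and miR-125 guides, are made outside the Hox clusters and were more abundant than miR-10 in all but miR-100-5p. Of these 5 names, 2 rose in edgeR's test, miR-125a-5p (log2 fold 0.46 ± 0.05 SE) and miR-125b-5p (0.26 ± 0.04). miR-99a-5p fell (-0.24 ± 0.04). Among all names tested, 17.7% were higher and 11.6% lower. miR-99b-5p (log2 fold 0.09 ± 0.04 SE) and miR-100-5p (0.04 ± 0.04) did not pass.

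In the authors' deposited table of differently expressed miRNAs, which holds 50 names, none of the 7 members is listed. The smallest absolute log2 fold change among the 50 is 1.01. In the authors' deposited table of all miRNAs the log2 fold change of miR-615-3p is 0.80 with an FDR of 2.5e-38. The FDR in the authors' deposited table is 0.0057 for miR-10a-5p, 0.016 for miR-196a-5p and 0.112 for miR-196b-5p, with log2 fold changes of 0.08, -0.22 and -0.21. These log2 fold changes match those with library totals alone, not those with TMM scaling. With library totals alone, edgeR's adjusted p was 0.098 for miR-10a-5p, 3.8e-04 for miR-196a-5p and 0.0041 for miR-196b-5p, so the authors' FDR is not directly comparable with the values above.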

How the data were processed

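Small RNA libraries of GC-1spg cells were compared, 3 si-METTL3 against 3 si-NC. The submitters' processing notes name the build mm10 and the tools RSEM, StringTie, Bowtie2 and fastp. Their roles and versions are not given in the sources used here. Per the file headers, the authors deposited counts and TPM per mature name. By their values, the counts were whole numbers and each TPM was the count scaled by 1 total per library, with 0 written as 0.01. The deposited tables also hold group means, log2 fold changes, p-values and FDR by the authors. Of that table, 2 empty lines are not analysed here.

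The totals behind the TPM were taken as library sizes. Counts were fitted with edgeR 4.0.16 (TMM, filterByExpr, robust quasi-likelihood test) in R 4.3.3, on all names, at an adjusted p of 0.05. The SE given with an edgeR log2 fold was derived from the test, as the absolute log2 fold divided by the square root of the F statistic. Ratios of arms and of variants with the same first 15 bases were fitted with limma 3.58.1 on log2 ratios with 0.5 added to each count. DESeq2 1.42.0 was an alternative. Fits were tested on simulated data. Named miRNAs were the 7 members, the other arms of their hairpins, names with the same first 15 bases or bases 2 to 8, the miR-99/100 and miR-125 guides, and the 3 names nearest in pattern. The members and lists were chosen with earlier results of these data known. Reads without molecular identifiers are not independent molecules, so the level of 3 counts covers counting error only.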

Additional observations from a re-analysis of the deposited data

How the results depend on the processing

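The counts of calls over all names (182 as reported) stayed between 122 and 185 under 19 alternatives, and 153 to 171 without each library in turn. Between 2 and 4 of the 7 members passed in every alternative. Sets of libraries that differ in invertebrate names (si-NC 1; si-NC 2, si-NC 3 and si-METTL3 1; si-METTL3 2 and si-METTL3 3) were added as a term after the data were seen. The first and the last of these sets each hold libraries of only 1 group, so set and siRNA cannot be told apart there. The term for sets leaves only the middle set, with 1 si-METTL3 library, to compare the groups. That library is assumed to vary like the others. With it miR-615-3p passed (0.93) and miR-10a-5p did not (0.12, adjusted p 0.134). The log2 fold of miR-10b-5p turned to -0.036 in limma's test of log2 TPM at pseudocounts of 1, 0.5 and 5 and with library totals alone, and to -0.0036 with the term for sets. That of miR-10b-3p turned to -0.0097 with DESeq2 size factors, -0.061 with library totals alone, -0.011 with the filter of 10 CPM, -0.017 with the term for sets, -0.0097 in DESeq2's Wald test, -0.0600 and -0.0604 in limma at pseudocounts of 1 and 0.5, and -0.057 at 5, and ran from -0.0035 to 0.011 without each library in turn. None of these passed the threshold in either direction. Without each library in turn miR-10-z ran from -0.22 to 0.16, the arm ratio of miR-10b from -0.011 to 0.048 (also as a pair of members) and the ratio of miR-196-x to miR-196a-5p from -0.29 to 0.059. The differences of miR-10a-3p over miR-196a-5p ran from -0.071 to 0.061, of miR-10a-3p over miR-196b-5p from -0.078 to 0.029 and of miR-196a-5p over miR-196b-5p from -0.034 to 0.019. With the term for sets the arm ratio of miR-615 turned to 0.053 and the ratio of miR-196-x to 0.20. The cause was not tested.

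Calls among arm ratios (12 of 118 as reported) were 21 with a mean of at least 50 counts, 0 with the replicate block, 0 with the term for sets and 2 to 11 without each library in turn. Calls among variant ratios (14 of 162 as reported) were 23, 2, 0 and 2 to 3. The labels state no pairing of libraries beyond the shared replicate numbers. Deviations of same-numbered libraries from their group means correlated at -0.52, -0.31 and -0.42. With 3 libraries per group, each centred on its group mean, these values cannot decide whether the libraries were paired. The replicate block gave 176 calls in edgeR, with 3 members among them; for pairs of members its smallest possible p is 0.25. The 2 groups of 3 libraries limit every exact test here, and low counts, such as the 29 to 87 of miR-615-5p, let 1 library move a value.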
